A study of Mus musculus with 15 samples.

Results

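The 8 genes examined, which mark mesothelial cells, were followed in sorted cells of mouse white adipose tissue (WAT) and lung. They were Msln, Upk3b, Upk1b, Lrrn4, Gpm6a, Wt1, Bnc1 and Podxl, chosen by symbol as genes known from mesothelium. All 8 of 8 symbols were among the 10222 genes with RPKM values (read density per transcript length and per library size), and each was represented by 1 transcript. The study compared 5 populations, each with 3 libraries from independent experiments, 15 in all: Il33+ WAT-MSC and Il33- WAT-MSC (mesenchymal stromal cells), WAT endothelial cells, lung Il33+ MSC and lung epithelial cells. All came from C57BL/6 mice with the IL-33-citrine reporter, used as heterozygotes, and the labels name no treatment, so every population shared the reporter allele; the age and sex of the mice were not given in the sources used here. WAT-MSC were sorted directly from digested tissue as Lin-, CD45-, Epcam-, CD31- and CD24- cells that were positive for PDGFRα, CD34, Sca1 and Podoplanin, and were split by citrine. The labels place the WAT stromal cells in mesenteric fat and the Epcam+ epithelial cells in the lung. For the CD31+ endothelial cells the titles name WAT without the fat depot. A difference in depot could thus not be told apart from cell type in their comparisons with WAT-MSC. None of the 8 proteins was used in a gate, but Podoplanin, which was, is also carried by mesothelial cells.

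The mesothelium is the sheet of flat cells that lines the body cavities and covers the organs in them, visceral fat included. It arises from mesoderm but keeps epithelial features such as keratins and apical surface proteins, and it can give rise to stromal cells. Mesothelin (Msln) is a surface glycoprotein that binds the mucin Muc16, and Upk3b and Upk1b are uroplakins, membrane proteins first described in the bladder lining. Lrrn4 is a leucine-rich repeat membrane protein and Gpm6a is a membrane glycoprotein best known from neurons. Wt1 and Bnc1 are zinc finger transcription factors, of which Wt1 is also known from stromal cells of visceral fat. Podxl, a sialomucin, is shared with vascular endothelium. In build GRCm38.p6, Msln lies at chr17:25748613-25754378, Upk1b at chr16:38773182-38800203, Wt1 at chr2:105126529-105173614 and Podxl at chr6:31519493-31563937.

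Promoter sequences are shown for 4 of the 8 genes, those for which the RefSeq table held an entry. They cover 250 bases before to 50 bases after the start, on the gene's strand, in build GRCm38.p6, the coordinates of mm10. Capitals mark the letters GGAATG or its reverse complement, the core bound by TEAD factors. This motif and the WT1 or EGR core GCGTGGG were looked for on both strands, and no match of one overlapped the other in the sequences printed.
Upk3b, chr5:136038246-136038545, plus strand: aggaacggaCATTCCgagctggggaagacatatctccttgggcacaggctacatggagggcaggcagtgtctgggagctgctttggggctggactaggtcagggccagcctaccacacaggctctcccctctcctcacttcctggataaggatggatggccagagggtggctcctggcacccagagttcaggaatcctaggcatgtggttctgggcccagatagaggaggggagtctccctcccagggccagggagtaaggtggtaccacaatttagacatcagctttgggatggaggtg
Lrrn4, chr2:132880813-132881112, minus strand: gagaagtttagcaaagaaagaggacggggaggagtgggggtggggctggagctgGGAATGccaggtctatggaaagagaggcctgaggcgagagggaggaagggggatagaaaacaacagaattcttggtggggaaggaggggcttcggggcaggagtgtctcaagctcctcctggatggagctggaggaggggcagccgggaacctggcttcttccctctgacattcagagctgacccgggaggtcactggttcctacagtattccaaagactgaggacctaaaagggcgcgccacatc
Gpm6a, chr8:54779184-54779483, plus strand: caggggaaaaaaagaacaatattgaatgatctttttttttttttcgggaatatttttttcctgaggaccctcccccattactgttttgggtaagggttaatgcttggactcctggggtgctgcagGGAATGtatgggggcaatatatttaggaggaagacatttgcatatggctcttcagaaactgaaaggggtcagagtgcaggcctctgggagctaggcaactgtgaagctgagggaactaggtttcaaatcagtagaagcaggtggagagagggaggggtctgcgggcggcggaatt
Bnc1, chr7:81992250-81992549, minus strand: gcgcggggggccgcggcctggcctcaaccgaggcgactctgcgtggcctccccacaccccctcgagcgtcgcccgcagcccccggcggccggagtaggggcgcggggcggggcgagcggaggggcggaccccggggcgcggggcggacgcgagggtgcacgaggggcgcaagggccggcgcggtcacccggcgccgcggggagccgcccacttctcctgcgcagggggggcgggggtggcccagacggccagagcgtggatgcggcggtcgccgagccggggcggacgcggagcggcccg
The TEAD core was present in 3 of the 5 promoters listed for these 4 genes (Gpm6a had 2 entries) and in 14.7% of all 32851 promoters of the table. The WT1 or EGR core was in none of the 5, against 5.04% of all promoters. GC content ran from 58.7% in Upk3b, 58% in Lrrn4 and 47% in the printed Gpm6a entry to 83.3% in Bnc1, beside a median of 52.7% over the table. These matches describe letters in a window and are no evidence of binding.

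Each library had between 42711843 and 60773158 alignments (median 53038567). The sorted populations carried their own markers: Pecam1, the endothelial marker CD31, was at 145 to 198 RPKM in the endothelial libraries and at 0.71 to 2.99 RPKM in the 6 WAT-MSC libraries, and Epcam reached 25.9 to 39.8 RPKM in lung epithelium and at most 0.28 RPKM elsewhere. Pdgfra stood at 53.3 to 122 RPKM in WAT-MSC and still at 24.4 to 35.7 RPKM in the endothelial libraries. A pair of libraries stood apart by their share of transcripts listed at 0, which was 10.9% in endothelial replicate 1 and 7.41% in Il33- WAT-MSC replicate 1, against 1.87% to 5.80% in the other 13. The limma counts, the rank of Wt1, its correlations over WAT-MSC and the median correlation are therefore also given with libraries left out. Other means and ratios, the ranges of the other correlations and the nearest genes are given with all libraries only.

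Of the 8 genes, 6 had their highest mean level in the WAT endothelial libraries, while Upk1b was highest in Il33+ and Wt1 in Il33- WAT-MSC. The rank of Wt1 did not hold without replicate 1 of the endothelial and Il33- cells. In replicates 2 and 3, Wt1 was at 19.7 and 14.3 RPKM in endothelial cells, against 13.5 and 10.7 RPKM in Il33- WAT-MSC. Summed over Msln, Upk3b, Upk1b, Lrrn4, Gpm6a and Bnc1, the endothelial libraries held 48.3, 157 and 161 RPKM and the Il33+ WAT-MSC libraries 23.3, 75.6 and 91.1 RPKM. The Il33- WAT-MSC libraries held 0.04, 15.95 and 9.75 RPKM, lung Il33+ MSC 1.32 to 4.02 RPKM and lung epithelial cells 3.16 to 6.66 RPKM. Thus the Il33+ libraries lay above all Il33- and lung libraries and overlapped the endothelial ones, whereas Il33- replicate 1 lay below every lung library. In bulk libraries such as these, fewer cells of a type and less RNA per cell cannot be told apart.

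**Figure D1:**
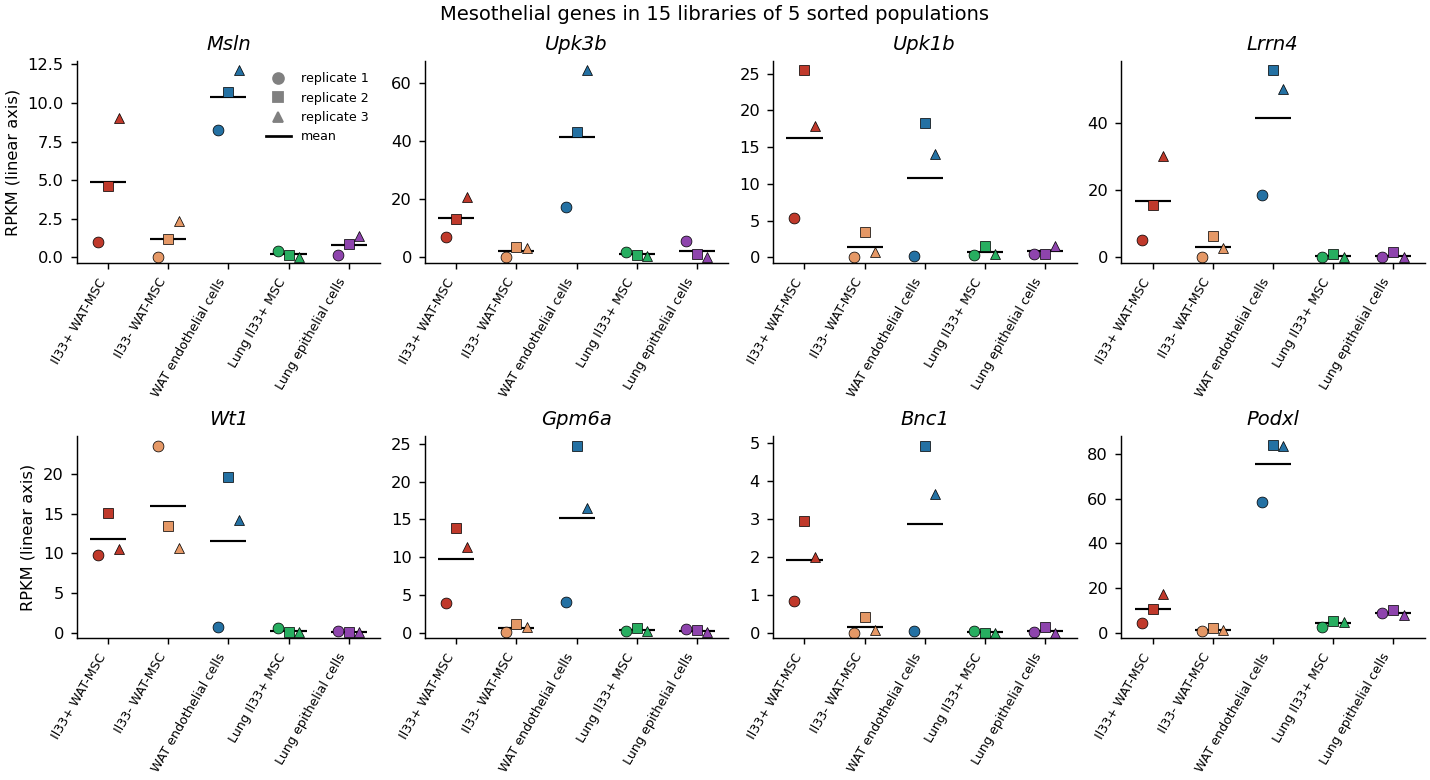
RPKM of each of the 8 genes on a linear axis (vertical) in the 5 sorted populations (horizontal), with 1 point per library, its shape giving the replicate, and a line at the mean of 3 libraries. In 6 of the 8 panels the endothelial mean is the highest, as for Podxl at 75.6 RPKM, while Upk1b is highest in Il33+ WAT-MSC and Wt1 in Il33- WAT-MSC. The order for Wt1 depends on replicate 1 of the endothelial and Il33- cells.

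Among the surface proteins, Msln was at 1.01, 4.62 and 9.04 RPKM in Il33+ WAT-MSC, at 0.01, 1.17 and 2.39 RPKM in Il33- WAT-MSC and at 8.23, 10.7 and 12.1 RPKM in the endothelial cells. It did not pass 0.39 RPKM in lung MSC and lay at 0.19 to 1.38 RPKM in lung epithelium. Neighbouring populations overlapped throughout the order of Msln levels, so only distant populations were separated. Upk3b was higher in each WAT population, at 7.13, 13.2 and 20.8 RPKM in the Il33+ cells, 0, 3.44 and 3.20 RPKM in the Il33- cells and 17.2, 43.1 and 64.2 RPKM in endothelial cells. It was also detected in the lung, where lung MSC held 2.00, 0.76 and 0.39 RPKM and lung epithelium 5.54, 1.34 and 0.13 RPKM. The Il33+ libraries lay above every Il33- and every lung library for Upk3b, and overlapped the endothelial range.

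Lrrn4 had the same order as Msln, with 5.06, 15.7 and 30.1 RPKM in the Il33+ cells, 0.02, 6.30 and 2.68 RPKM in the Il33- cells and 18.6, 55.7 and 50.1 RPKM in endothelial cells. Replicate 2 of the Il33- WAT-MSC, at 6.30 RPKM, exceeded the lowest Il33+ library. In the lung Lrrn4 did not pass 0.99 RPKM in MSC and 1.53 RPKM in epithelium. Gpm6a read 3.92, 13.8 and 11.3 RPKM in the Il33+ cells, 0.01, 1.15 and 0.72 RPKM in the Il33- cells and 4.05, 24.8 and 16.5 RPKM in endothelial cells, with at most 0.55 RPKM in any lung library. The Il33+ and Il33- ranges were apart, and the mean level was 15.4 times as high in Il33+ WAT-MSC. That ratio includes Il33- replicate 1, at 0.01 RPKM.

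Upk1b departed from these 4 genes in its top population. Its levels were 5.35, 25.4 and 17.9 RPKM in the Il33+ cells, 0, 3.48 and 0.70 RPKM in the Il33- cells and 0.17, 18.2 and 14.1 RPKM in endothelial cells, and it lay at 0.33 to 1.57 RPKM in the lung. The spread of the endothelial libraries covered the whole range from the lung level to the Il33+ level, so the order of these first populations was not resolved.

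The transcription factor Bnc1 was the least abundant of the genes. It was read at 0.83, 2.94 and 2.00 RPKM in the Il33+ cells, 0, 0.41 and 0.06 RPKM in the Il33- cells, and 0.05, 4.93 and 3.64 RPKM in endothelial cells, and it was at or near 0 in all lung libraries, with a highest value of 0.15 RPKM. The Il33+ and Il33- libraries did not overlap, but Bnc1 reached 1 RPKM in only 2 of these 6 libraries and was not tested there.

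Wt1 did not follow the Il33 reporter. It stood at 9.80, 15.1 and 10.6 RPKM in the Il33+ cells, while the Il33- cells held 23.6, 13.5 and 10.7 RPKM, with overlapping libraries. The endothelial libraries held 0.75, 19.7 and 14.3 RPKM. Lung libraries were all at or below 0.61 RPKM, and every WAT library exceeded every lung library. The highest Wt1 value of the series was in replicate 1 of the Il33- WAT-MSC, the library in which the sum of the 6 other genes was 0.04 RPKM.

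Podxl ran from 58.8 to 84.0 RPKM in the endothelial libraries, above all other libraries. Il33+ WAT-MSC held 4.21, 10.5 and 17.4 RPKM, and the Il33- libraries were at 0.67, 1.90 and 1.09 RPKM, without overlap. In the lung Podxl was at 2.70 to 5.14 RPKM in MSC and 7.93 to 10.3 RPKM in epithelium, and Il33- WAT-MSC were the lowest population.

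**Figure D2:**
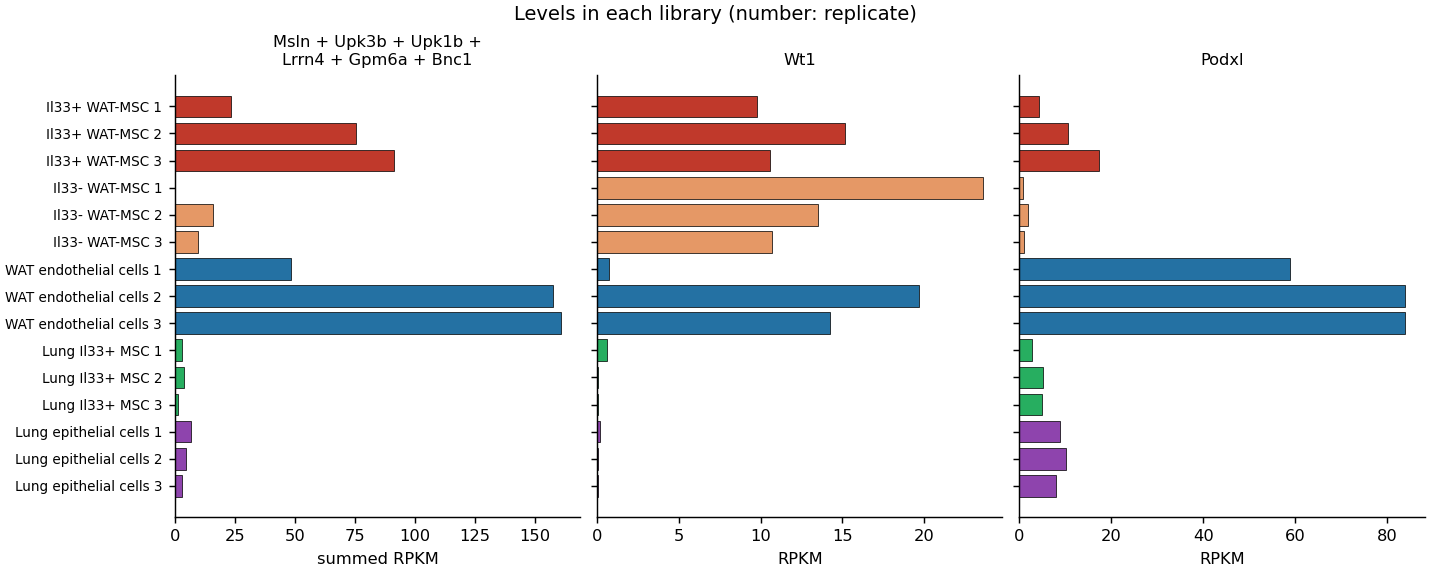
Bars give the summed RPKM of 6 genes, the RPKM of Wt1 and the RPKM of Podxl (horizontal axes, linear from 0) in each of the 15 libraries (vertical axis, with the replicate number). The first panel falls to 0.04 RPKM in Il33- WAT-MSC replicate 1 while Wt1 is at its highest there, 23.6 RPKM, and Wt1 is at 0.75 RPKM in endothelial replicate 1 while Podxl is at 58.8 RPKM.

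To ask which mesothelial genes differed between Il33+ and Il33- WAT-MSC, log2(RPKM + 1) was fitted with limma over all genes with at least 1 RPKM in at least 3 of the 6 libraries, with a threshold of 0.05 on the Benjamini-Hochberg adjusted p. Differences on this scale understate the change of genes near 1 RPKM. Of the 7 genes tested, 3 were higher in Il33+ WAT-MSC (Upk1b, Gpm6a and Podxl) and none was lower, where 0.923% of all 8448 genes were called higher. The log2 difference was 2.90 ± 0.60 (SE, limma adjusted p = 0.0393) for Upk1b, 2.64 ± 0.47 (limma adjusted p = 0.0174) for Gpm6a and 2.25 ± 0.45 (limma adjusted p = 0.0337) for Podxl. Upk3b, with a difference of 2.36 ± 0.56, did not reach the threshold (limma adjusted p = 0.0732), nor did Lrrn4 at 2.28 ± 0.70 (limma adjusted p = 0.188) or Msln at 1.31 ± 0.60 (limma adjusted p = 0.436). For Wt1 the difference was -0.35 ± 0.32 (limma adjusted p = 0.74). The median difference over the 7 genes was 2.28, against -0.01 over all genes. Libraries did not overlap for 4 of the 7 (Upk3b, Upk1b, Gpm6a and Podxl), beside 8.84% of all genes that lay higher in Il33+ WAT-MSC without overlap. Upk3b passed the threshold with lane as a covariate (limma adjusted p = 0.0425) and with median-ratio scaling of the libraries (limma adjusted p = 0.048), which brought the count to 4 in each of these fits. With a replicate block, Upk3b (limma adjusted p = 0.00422) and Lrrn4 (limma adjusted p = 0.00758) were both called, a count of 5. The replicate number was not taken as a pairing in the main fit. In lane 1 and in lane 2 of the sequencer, Upk1b differed by 2.61 and 3.47. Gpm6a differed by 2.53 and 2.84 and Podxl by 1.81 and 3.14. Lane was read from the run names in the sample descriptions. There each lane carried its own SLX identifier, so lane and that identifier cannot be told apart. Each WAT population had only its replicate 3 in lane 2, so the lane 2 differences set single libraries against each other.

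The count of 3 changed with the libraries included. Without replicate 1 of the Il33- WAT-MSC, the library with 7.41% of transcripts at 0, limma called 0 of the 7, with 5 at an unadjusted p under 0.05, while the differences were 2.41 for Upk1b, 2.33 for Gpm6a and 2.07 for Podxl. None was called without Il33+ replicate 2 or without Il33+ replicate 3 either, again with 5 at an unadjusted p under 0.05, 1 (Gpm6a) was called without Il33- replicate 3 and 2 (Upk1b and Gpm6a) without Il33- replicate 2. Without Il33+ replicate 1 the same 3 genes were called. The count was 1 with a pseudocount of 0.1 (Podxl) and 0 with no filter on low genes. It was 2 (Gpm6a and Podxl) with all 15 libraries in one fit and with the most abundant transcript per gene. Upk1b was not called in these fits (limma adjusted p = 0.142 and 0.0521).

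**Figure D3:**
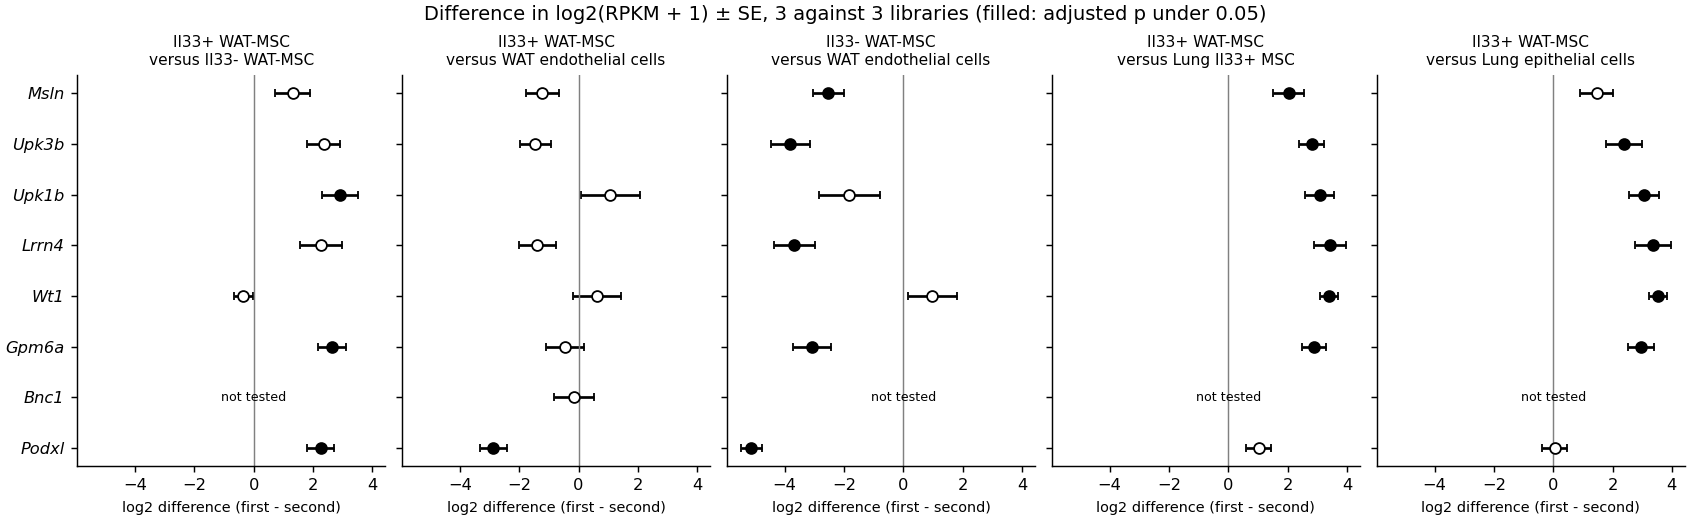
Difference in log2(RPKM + 1) (horizontal axis, first population minus second) with its standard error for the 8 genes (vertical axis) in 5 comparisons of 3 against 3 libraries. Filled points passed a limma adjusted p of 0.05, and Bnc1 was tested only against the endothelial cells in Il33+ WAT-MSC, where it differed by -0.14.

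Compared with the endothelial cells, Il33- WAT-MSC were lower in 5 of the 7 genes tested and higher in none, where 4.1% of 8713 genes were called lower. The differences were -5.13 ± 0.35 (SE) for Podxl (limma adjusted p = 0.000259), -3.82 ± 0.66 for Upk3b (limma adjusted p = 0.00993), -3.67 ± 0.70 for Lrrn4 (limma adjusted p = 0.0161), -3.08 ± 0.63 for Gpm6a (limma adjusted p = 0.0226) and -2.53 ± 0.51 for Msln (limma adjusted p = 0.0208). These 5 genes also had no overlap between libraries, which held for 10.5% of all genes in that direction. Upk1b differed by -1.82 ± 1.02 (limma adjusted p = 0.43) and Wt1 by 0.97 ± 0.82 (limma adjusted p = 0.599). Within lane 1 the 5 differences ran from -5.02 (Podxl) to -2.81 (Msln). Within lane 2, with a single library of each population, they ran from -5.34 (Podxl) to -1.95 (Msln). With replicate 1 of both populations left out, an alternative chosen after the values were seen, 6 were called, Upk1b being the addition. Counts were lower in several other fits: 2 without endothelial replicate 2, 3 without Il33- replicate 1, Il33- replicate 2 or endothelial replicate 3, 2 with no filter and 1 with a pseudocount of 0.1.

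Il33+ WAT-MSC and the endothelial cells differed in 1 of 8 genes, Podxl, which was lower in the stromal cells with a difference of -2.87 ± 0.45 (SE, limma adjusted p = 0.00855), where 3.34% of 8665 genes were called lower and 10.2% lay lower without overlap. Podxl was also the 1 gene of the 8 without overlap, and it differed by -3.205 within lane 1 and by -2.21 within lane 2. Lane 2 again held a single library of each population. Point estimates were -1.46 ± 0.52 for Upk3b (limma adjusted p = 0.207), -1.39 ± 0.62 for Lrrn4 (limma adjusted p = 0.327) and -1.22 ± 0.56 for Msln (limma adjusted p = 0.355). Upk1b differed by 1.08 ± 1.00, Wt1 by 0.62 ± 0.82, Gpm6a by -0.45 ± 0.64 and Bnc1 by -0.14 ± 0.68, with limma adjusted p between 0.658 and 0.942. Upk1b and Wt1 changed sign to -0.21 and -0.49 when endothelial replicate 1 was left out, and Upk3b was then called besides Podxl. Rescaling the libraries by median ratios moved the differences of all genes by a median of -0.16 in this comparison.

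Stromal transcripts accompanied the mesothelial ones in the endothelial libraries. A list of 10 stromal markers summed to 1831, 2108 and 3795 RPKM there, against 5232 to 6921 RPKM in the Il33+ and 3977 to 5412 RPKM in the Il33- stromal libraries. All 10 stromal markers and all 6 pericyte and smooth muscle markers had an endothelial mean of at least 1 RPKM, the latter summing to 185 to 269 RPKM. At this cutoff 9 of the 10 stromal markers also passed in lung epithelium. Of 10 endothelial markers, 8 passed in Il33+ and 5 in Il33- WAT-MSC, so the cutoff separates populations poorly. In WAT-MSC, 10 endothelial markers summed to 13.8 to 44.5 RPKM, against 599 to 732 RPKM in the endothelial libraries. Leukocyte markers, 7 of 8 in the table, summed to 245 to 422 RPKM in the endothelial and 7 to 83.5 RPKM in the WAT-MSC libraries. Cd74 alone was at 272, 264 and 186 RPKM in the endothelial libraries. No other leukocyte marker passed 7.59 RPKM in endothelial replicate 1, while Lyz2 reached 94.8 RPKM in replicate 2. The 1 adipocyte marker of 5 in the table did not pass 7.42 RPKM. Replicate 1 of the endothelial cells was lowest of the 3 for the stromal list and highest for the endothelial list. Their part in the mesothelial levels was not tested.

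The endothelial libraries also showed that the genes did not move as a block. In replicate 1, Msln was at 72.0% and Podxl at 70.1% of the mean of the other endothelial libraries. Lrrn4 was at 35.2%, Upk3b at 32.0% and Gpm6a at 19.6% of that mean. Wt1, Bnc1 and Upk1b were at 4.42%, 1.17% and 1.05%. The share of transcripts at 0 was largest in this library, at 10.9%, and its part in these values was not tested.

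Replicate 1 was the lowest library for all 8 genes in Il33+ WAT-MSC and in the endothelial cells, and for 7 of 8, Wt1 being the exception, in Il33- WAT-MSC. Over all genes that reached 1 RPKM in the population, replicate 1 was the lowest of 3 for 33.4%, 62% and 64.4%, respectively. In Il33+ WAT-MSC the levels in replicate 1 ranged from 14.8% (Msln) to 76.2% (Wt1) of the mean of the other 2 libraries, whereas of the genes for 4 proteins used in the sort Pdgfra was at 146%, Cd34 at 98.3%, Ly6a (Sca1) at 80.4% and Pdpn (Podoplanin) at 63.3% of it. The stromal marker list was also lowest in that library, at 5232 RPKM against 5950 and 6921 RPKM. In Il33- WAT-MSC, Wt1 in replicate 1 was at 195% of the mean of the others, Podxl at 44.8%, and Msln, Lrrn4 and Gpm6a at 0.562%, 0.445% and 1.07%.

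Against lung Il33+ MSC, sorted with the same reporter, 6 of 7 genes were higher in Il33+ WAT-MSC and none was lower, where 2.5% of 8554 genes were called higher. Wt1 differed by 3.40 ± 0.31 (SE, limma adjusted p = 0.000195), Lrrn4 by 3.43 ± 0.53 (limma adjusted p = 0.0034) and Upk1b by 3.08 ± 0.49 (limma adjusted p = 0.00432). Gpm6a differed by 2.89 ± 0.41 (limma adjusted p = 0.00226), Upk3b by 2.80 ± 0.41 (limma adjusted p = 0.00263) and Msln by 2.03 ± 0.51 (limma adjusted p = 0.0438). Podxl, at 1.02 ± 0.43, was not called (limma adjusted p = 0.253). Of the 7, 4 entered the test through the WAT libraries alone, having less than 1 RPKM in every lung MSC library, so this count is a description. The 6 genes called did not overlap, a pattern shown by 12.1% of all genes in this direction. Within lane 1, with a single lung MSC library, the 6 differences ran from 1.27 (Msln) to 3.28 (Upk1b). Within lane 2, with a single WAT library, they ran from 3.15 (Gpm6a) to 4.37 (Lrrn4). Between 5 and 7 genes were called when any 1 library was left out.

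In lung epithelial cells, 8 lung epithelial markers summed to at least 162261 RPKM, against at most 552 RPKM in any other library. Scgb1a1 made up most of both sums, at 160613 and 493 RPKM, and was at 56.1 to 134 RPKM in the WAT libraries. Lung epithelial cells were lower than Il33+ WAT-MSC in 5 of 7 genes and higher in none. Of all 9267 genes, 23% were called higher in Il33+ WAT-MSC and 30.2% lay higher without overlap. The differences were 3.53 ± 0.30 (SE) for Wt1, 3.37 ± 0.59 for Lrrn4, 3.06 ± 0.51 for Upk1b, 2.96 ± 0.43 for Gpm6a and 2.39 ± 0.61 for Upk3b, with limma adjusted p between 1.41e-05 and 0.0113, and these 5 did not overlap. Msln, at 1.47 ± 0.56, was not called (limma adjusted p = 0.0612). Podxl differed by 0.06 ± 0.42 (limma adjusted p = 0.932), and by -0.24 after median-ratio scaling, which moved the differences of all genes by a median of -0.25. Within lane 1, with a single lung epithelial library, the 5 called genes differed by 0.71 (Upk3b) to 3.46 (Wt1). Within lane 2, with a single WAT library, they differed by 3.28 (Upk1b) to 4.24 (Lrrn4). Here 2 of the 7 genes, Wt1 and Gpm6a, had less than 1 RPKM in every lung epithelial library. Both are among the 5 called and entered the test through the WAT libraries alone, so this count too is a description.

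A further 16 genes known from mesothelium were examined, of which 13 were in the table and Muc16, Calb2 and Cdh3 were not analysed here. Between Il33+ and Il33- WAT-MSC, 1 of 11 tested was higher and 1 was lower, beside 0.923% and 0.651% of all genes, and 10 of the 11 had a positive difference with a median of 0.93. Ezr, which links membrane to actin, was at 10.1, 16.1 and 16.9 RPKM in the Il33+ libraries and at 3.08, 4.99 and 5.51 RPKM in the Il33- libraries, a difference of 1.48 ± 0.31 (SE, limma adjusted p = 0.0408). Aldh1a2, an enzyme of retinoic acid synthesis, went the other way, at 31.3, 27.8 and 50.8 RPKM in Il33+ and 78.9, 103 and 102 RPKM in Il33- WAT-MSC (-1.38 ± 0.26, limma adjusted p = 0.026). The keratin Krt19 was at 6.99, 15.98 and 27.7 RPKM in the Il33+ and at 0, 7.86 and 1.10 RPKM in the Il33- libraries, with 1 Il33- library inside the Il33+ range (limma adjusted p = 0.119). Ezr was no longer called when any 1 of the 6 libraries was left out, and Aldh1a2 when any was left out other than Il33+ replicate 3 or Il33- replicate 1.

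Against the endothelial cells, 2 of 13 of these genes were lower in Il33+ WAT-MSC, Bcam by -3.07 ± 0.32 (SE, limma adjusted p = 0.00143) and Pkhd1l1 by -2.07 ± 0.45 (limma adjusted p = 0.0414), beside 3.34% of all genes called lower and 0.565% called higher. In Il33- WAT-MSC, 3 of 12 were lower, namely Bcam (-3.92, limma adjusted p = 0.000989), Pkhd1l1 (-3.27, limma adjusted p = 0.00179) and the protease inhibitor Slpi (-3.17, limma adjusted p = 0.0134), beside 4.1% of all genes called lower and 1.6% called higher. Pkhd1l1 was below 1 RPKM in every Il33- library and entered this test through the endothelial libraries alone, so its value is a description. None was higher in either comparison. Without endothelial replicate 1, 8 of the 12 were lower in Il33- WAT-MSC and 1, Aldh1a2, was higher, and without replicate 1 of both populations 7 were lower and Aldh1a2 again higher. The Pkhd1l1 call in Il33+ WAT-MSC was lost in 5 of the 6 fits that left out 1 library. In endothelial replicate 1, Pkhd1l1 was at 125%, Bcam at 74.3% and Slpi at 29.15% of the mean of the other endothelial libraries. The endothelial marker Pecam1 was at 136.5% there. Krt7, Krt18 and Nkain4 were listed at 0 and Krt8 was at 1.21%. Whether the Bcam and Pkhd1l1 transcripts came from endothelial or mesothelial cells was not tested. Against lung MSC, 4 of 9 were higher in Il33+ WAT-MSC (Cldn15, Slpi, Dmkn and Ezr) and none was lower, beside 2.5% and 3.5% of all genes, and only 1 of them (Slpi) was called without lung MSC replicate 2. Cldn15 and Dmkn had less than 1 RPKM in every lung MSC library and entered the test through the WAT libraries alone, so this count too is a description. Compared with lung epithelium, 4 of 12 were higher and 7 were lower, beside 23% and 18% of all genes. Of the 4, 2 (Aldh1a2 and Cldn15) entered through the WAT libraries alone, so the count of 4 is a description as well. The 7 lower genes included Krt8, Krt18, Krt19 and Krt7, which lung epithelial cells also express.

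Over the 6 WAT-MSC libraries, Pearson's r of log2(RPKM + 1) lay between 0.77 and 0.98 for the 21 pairs without Wt1, with a median of 0.93 (Spearman's rho 0.71 to 1). The 7 pairs with Wt1 had r between -0.69 and -0.27 (rho -0.49 to -0.26), and r between 0.03 and 0.40 once Il33- replicate 1 was left out, so the negative sign came with that library. These values describe 6 points from 2 populations that differ in the level of most of the genes, share lanes and include a library near 0, and no p is attached. Over all 15 libraries r lay between 0.51 and 0.95 without Wt1 and between 0.04 and 0.65 with it, where the low lung libraries were shared by every pair.

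**Figure D4:**
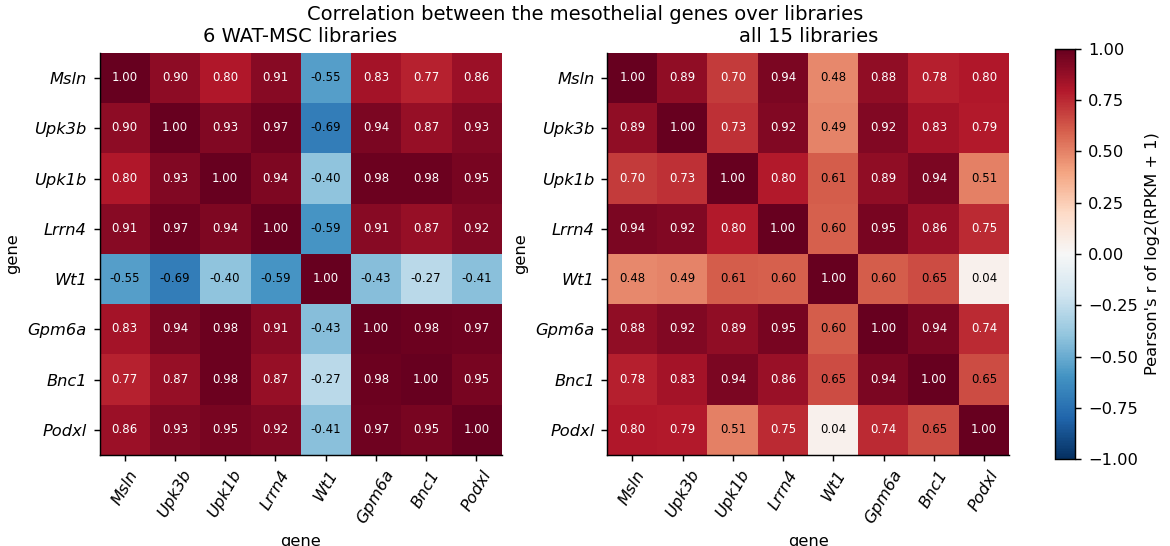
Pearson's r of log2(RPKM + 1) for each pair of the 8 genes (both axes), over the 6 WAT-MSC libraries on the left and all 15 libraries on the right, as colour and number. The Wt1 row is negative on the left, from -0.69 to -0.27, and positive on the right, and Podxl against Wt1 is at 0.04 on the right.

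Among the 9980 genes that reached 1 RPKM in at least 3 libraries, those most like each gene over the 15 libraries were often other mesothelial genes. Gpm6a had Lrrn4 (r = 0.95) and Bnc1 (r = 0.94) first, and 5 of the other 7 genes among its 20 nearest. Lrrn4 and Upk3b had 4 each among their 20 nearest, and Msln and Bnc1 had 3. The nearest gene was Slpi for Msln (r = 0.96) and Lrrn4 (r = 0.95), Gpm6a for Upk3b (r = 0.92), and Fam180a for Upk1b (r = 0.95) and Bnc1 (r = 0.98). Wt1 and Podxl had none of the others among their 100 nearest. Wt1 was most like Tmem255a (r = 0.95), Hoxc6 (r = 0.93) and Nkx2-3 (r = 0.92), genes with 0.6 RPKM or less in every lung library. Podxl was most like Aqp1 (r = 0.93), Clu (r = 0.93) and Rapgef5 (r = 0.93), all highest in the endothelial libraries. Genes were also ranked against the mean of the 7 genes without Podxl, over the 6 WAT-MSC libraries only. With 8442 genes ranked on 6 points, the highest r values can arise by chance, so this list is a description. The nearest were Cobll1, Cldn1, Lamp1, Unc13b and Fgf9, with r from 0.98 to 0.99. Of these, Cldn1, a tight junction claudin, was at 1.32, 3.63 and 4.49 RPKM in Il33+ and 0, 0.78 and 0.38 RPKM in Il33- WAT-MSC, but at 3.78 to 12.99 RPKM in lung MSC.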

How the data were processed

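RNA of sorted cells was amplified (Ovation RNA-seq, NuGEN) and sequenced by the authors, who trimmed the reads, aligned them to mm10 with TopHat2 in Partek and deposited RPKM values with 2 decimals for 12698 RefSeq transcripts; transcript quantification and any filter on the table are not given in the sources used here. Because RPKM is relative to all mapped reads, a few abundant transcripts lower the rest of a library, and a listed 0 may be a failed estimate. The read counts behind the values were not used, so no counting interval is given; alignments per library set the depth.

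RPKM was summed per gene symbol, samples were grouped by their titles, and log2(RPKM + 1) was fitted with limma 3.58.1 (lmFit, eBayes with trend) in R 4.3.3, each comparison on its own 6 libraries without covariates, for genes with at least 1 RPKM in at least 3 of them. P was adjusted by Benjamini-Hochberg over all genes tested (threshold 0.05, two-sided). The fit was also run on simulated data with independent noise for each gene. That setting held no shift of a whole library, so it says nothing on calls that depend on single libraries. Replicates came from independent experiments. Correlations and figures used Python 3.11.15, numpy 2.4.6, pandas 2.3.3 and matplotlib 3.10.9. Comparisons that share a population share its libraries. The 8 genes, the further lists, the markers and the motifs were chosen with earlier results of these data known. All 8 genes were to be named in every library, further mesothelial genes where they passed in a WAT comparison (at most 6), and the 3 most alike genes by Pearson's r over 15 libraries (5 for the mean of the 7 over 6). Krt19, Cldn1 and the keratins were named after their values were seen.

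Alternatives were a replicate block, a lane term, a joint fit of the 15 libraries, scaling by median ratios, a smaller pseudocount (0.1), dropping or tightening the filter on low genes, the most abundant transcript per gene and leaving out each library. Libraries with the same replicate number did not deviate together in every comparison (correlations of deviations from -0.09 to 0.15), so the number was not treated as a pairing. The correlations were small but all positive for Il33+ against Il33- WAT-MSC (0.04 to 0.11). The same held for Il33- WAT-MSC against endothelial cells (0.08 to 0.14).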

Additional observations from a re-analysis of the deposited data

How the results depend on the processing

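Counts of called genes are out of those tested in each comparison, with the tested genes kept when a library was left out. Between Il33+ and Il33- WAT-MSC the count of 3 became 5 with the replicate block (Upk3b and Lrrn4 added) and 1 with a pseudocount of 0.1. It was 0 with no filter (6 of 8 at an unadjusted p under 0.05) and 0 to 3 with 1 library left out. The joint fit of 15 libraries and the most abundant transcript gave 2, and the lane term and median-ratio scaling gave 4. Of 126 values for single genes in that comparison, none changed sign. Il33+ WAT-MSC against endothelial cells gave 2 with the replicate block, in place of 1, and 1 to 2 with 1 library left out. Il33- WAT-MSC against endothelial cells gave 1 with a pseudocount of 0.1, 2 with no filter and 2 to 6 with 1 library left out, in place of 5. The replicate block moved no other count of the 8 genes by more than 1.5 times. Counts against the lung populations, 6 and 5, stayed within 1.5 times under every alternative run. Both include genes that entered the test through the WAT libraries alone, so they remain descriptions. The median r over the 28 pairs was 0.90 and lay between 0.85 and 0.93 with 1 library left out.

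For the further mesothelial genes, whose counts under these alternatives were added after the data were seen, the count of 2 between Il33+ and Il33- WAT-MSC became 6 with the replicate block, 1 with a pseudocount of 0.1 or the most abundant transcript, 0 with no filter or all 15 libraries in one fit (7 of 13 and 6 of 11 at an unadjusted p under 0.05), and 0 to 1 with 1 library left out. The count of 2 in Il33+ WAT-MSC against endothelial cells became 1 with lane as a covariate, a pseudocount of 0.1 or no filter, and 1 to 2 with 1 library left out. In Il33- WAT-MSC against endothelial cells the count of 3 became 5 with the replicate block, with all 15 libraries and with median-ratio scaling (4 lower, and Aldh1a2 higher in Il33- WAT-MSC), 8 without replicate 1 of both populations (7 lower and Aldh1a2 higher) and 2 to 9 with 1 library left out (2 to 8 lower). Aldh1a2 differed there by 2.54 (limma adjusted p = 0.0671). Against lung MSC the count of 4 became 2 with all 15 libraries or no filter and 1 to 6 with 1 library left out.

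Changes of sign involved differences that passed no threshold. In Il33+ WAT-MSC against endothelial cells, leaving out 1 library gave -0.91 to 0.34 for Bnc1, -1.14 to 0.037 for Gpm6a, -0.21 to 1.81 for Upk1b and -0.49 to 1.29 for Wt1, the last 2 being negative without endothelial replicate 1, and Bnc1 was at 0.36 with a pseudocount of 0.1. Wt1 in Il33- WAT-MSC against endothelial cells lay between -0.14 and 1.64, with -0.14 without endothelial replicate 1, and was -0.45 without replicate 1 of both populations. Against lung epithelium Podxl was -0.24 with median-ratio scaling and -0.36 to 0.55 with 1 library left out. The causes were not tested. With 3 libraries a population, differences of several standard errors could miss the threshold, as for Lrrn4 between Il33+ and Il33- WAT-MSC (2.28 ± 0.70).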
